A study of Mus musculus with 8 samples.

Results

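Purine and pyrimidine nucleotide synthesis was examined through 37 genes chosen for their place in the pathway. Of these, 35 had a probe set whose platform annotation names that gene alone, and each was represented by its brightest such probe set, out of 17097 genes represented in this way. Atic and Impdh2 were not analysed here. All 35 passed the filter on dim genes, so that 35 of the 12250 genes tested belong to the set.

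Cells build purine nucleotides stepwise on an activated ribose, phosphoribosyl pyrophosphate (PRPP), to reach inosine monophosphate, which is then turned into adenine or guanine nucleotides. Pyrimidines are assembled first as a ring and then joined to PRPP. Salvage enzymes instead recycle bases and nucleosides, ribonucleotide reductase converts ribonucleotides to the deoxy form for DNA, and further enzymes supply thymidylate and keep the deoxynucleotide (dNTP) pools in balance. Proliferating leukaemia cells draw on these routes, and several of the enzymes are targets of antileukaemic drugs.

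Transcripts were measured on 8 Affymetrix mouse arrays, with total RNA of cell lines of acute myeloid leukaemia (AML). In the group labelled Trib1 hi, 4 arrays hold cells expressing the homeobox transcription factor Hoxa9 together with Trib1, a pseudokinase that directs C/EBP alpha to degradation. In the group labelled Trib1 null, 4 arrays hold cells expressing Hoxa9 alone. Both groups arose in mice with a homozygous Trib1 knockout and grew, untreated, in IMDM medium that held IL-3, a myeloid growth factor, at 5 ng/ml beside 10% serum. The labels do not say how Trib1 and Hoxa9 were introduced, how many clones or animals the lines come from, or whether arrays of a group are separate cultures. The p-values therefore measure the spread between these arrays, which may be technical, and 4 arrays per group limit the precision. The comparison addresses how expression differs between Hoxa9-driven AML cells with and without Trib1.

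The arrays had features that touch the results below. Array 3 of the group labelled Trib1 hi stood apart: its median signal was 68.3, against 3.71 to 9.56 on the other 7, and its 99th percentile was 11618, against 13215 to 17006. It was the lowest of its group for 16 of the 16 nucleotide genes that exceeded a signal of 2000 on all arrays labelled Trib1 hi, so results without it are given where the calls differ. A spiked-in control, dap, had log2 differences from -0.68 to -0.50 for its 4 probe sets with group means between 1153 and 2963, which is lower on arrays labelled Trib1 hi. The bioD and cre controls, with group means between 1925 and 23431, differed by 0.01 to 0.16, and the 4 bioC probe sets, with group means between 691 and 1322, by -0.34 to 0.20. The Trib1 probe set had signals of 7.13, 7.13, 122 and 5.92 in the group labelled Trib1 hi, against 304, 223, 212 and 206 in the group labelled Trib1 null, which goes against the labels (-3.72, adjusted p = 0.0498), and all 8 are low. Hoxa9 averaged 107 ± 189 in the group labelled Trib1 hi and 1024 ± 43.5 in the group labelled Trib1 null. Which parts of the genes were introduced or deleted is not stated, so these probe sets may check nothing, and each direction below is that of the labels. All 10 myeloid markers exceeded 500 on at least 1 array, and 5 of 5 lymphoid markers, 5 of 6 erythroid and megakaryocytic ones and 6 of 7 fibroblast and endothelial ones lay below 500 on all arrays. The summed myeloid signal was 74968 to 106912 in the group labelled Trib1 hi and 88559 to 108217 in the group labelled Trib1 null, with 3 markers higher and 4 lower, and Mpo near 0 (at most 3.97) in the group labelled Trib1 null. The summed signal of 5 mast cell and basophil markers was 20465 to 29365 in the group labelled Trib1 hi and 5948 to 6594 in the group labelled Trib1 null, with 3 of the 5 below 500 throughout. The brighter markers went opposite ways, so this sum follows Cpa3. Cpa3 averaged 23607 ± 4093 in the group labelled Trib1 hi and 1385 ± 22.4 in the group labelled Trib1 null. Mcpt8 averaged 2872 ± 220 in the group labelled Trib1 hi and 4980 ± 321 in the group labelled Trib1 null. The part of these marker differences in the results was not tested, and in whole-culture RNA fewer cells of a type and less RNA per cell cannot be told apart.

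Differences are fitted log2 values, Trib1 hi minus Trib1 null, with a pseudocount of 2.71, from limma across all 12250 genes with Benjamini-Hochberg adjustment, and a gene is said to rise or fall where its adjusted p was below 0.05. Means are of deposited signals, given ± SD over the arrays of a group (n = 4 each), and SE belongs to the log2 difference. Folds are ratios of geometric means, with any signal under 500 raised to that limit, which was set with the data in view. Where an array of the lower group lies below 500 the fold is a lower bound, written "at least". Signals of different genes are not compared, since each probe set has its own response. Gene positions are RefSeq's on GRCm38.p6.

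Of the 35 genes, 14 rose and 7 fell in the arrays labelled Trib1 hi, and 14 were not called. This is 40% rising, against 11.1% of all genes tested, and 20% falling, against 19.7%. Bright genes were called more often than dim ones: among the 5326 genes with a mean signal of 500 or more, 24.2% rose and 31.1% fell, against 14 (45.2%) and 7 (22.6%) of the 31 nucleotide genes in that range. The median log2 difference was 0.19 over the 35 genes and 0.04 over all genes tested. Without array 3 of the group labelled Trib1 hi, 19 rose and 10 fell, with 13 of the 14 and 7 of the 7 among them. Of all 12250 genes tested, 2103 rose and 3768 fell without that array, more than in the main fit. The groups did not overlap for 11 of the genes that lay higher and 7 that lay lower, against 13.5% and 15.8% of all genes tested. Scaling the arrays to equal medians moved the median difference of all genes to -0.69, with 0 members higher and 2 lower, and quantile normalization left it at 0.01, with 23 higher and 9 lower. Of all 12250 genes, 162 were higher and 2160 lower with equal medians, and 3354 higher and 3346 lower with quantile normalization. Among the risers were 5 genes of purine ring assembly, and among the 7 that fell were Adk, Ada and Pnp of purine salvage.

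**Figure D1:**
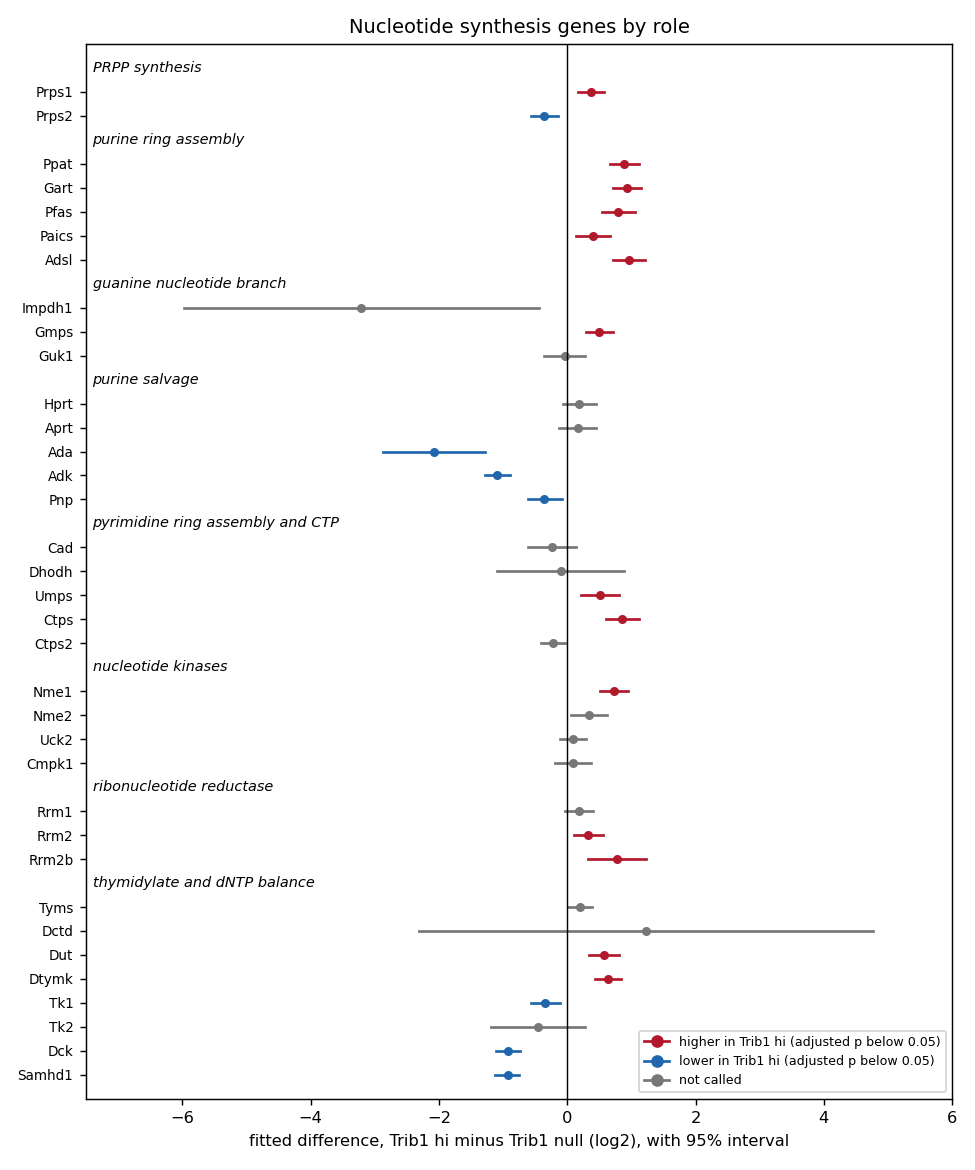
Fitted log2 difference, arrays labelled Trib1 hi minus arrays labelled Trib1 null, for the 35 nucleotide genes by role, with 95% intervals on the x axis in log2 units. All 5 purine ring assembly genes lie right of 0, whereas Ada, Adk and Pnp among the salvage genes and Tk1, Dck and Samhd1 lie left of it.

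Genes of purine ring assembly rose together. All 5 measured members rose, 4 of them with a log2 difference of 0.79 or more and without overlap between the groups, and 0 fell. Of all genes tested 11.1% rose, and 24.2% of those with a mean signal of 500 or more. The rise of Gart rests on its brightest probe set alone, and the call of Paics ended when certain single arrays were left out. Their median difference was 0.89, against 0.04 for all genes tested. With equal array medians 0 of the 5 were called in limma, and Paics alone of the 5 changed sign, to -0.33, and lay above the median of all genes at that scaling (-0.69).

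Ppat encodes the amidotransferase that commits PRPP to the purine route. Its signal was 2389, 2029, 1758 and 2053 on the 4 arrays labelled Trib1 hi, against 1072, 1106, 1162 and 1069 on those labelled Trib1 null, a 1.86-fold rise (log2 difference 0.89, SE 0.11, adjusted p = 5.40e-08). The lowest array labelled Trib1 hi, array 3, still lay above each array labelled Trib1 null.

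Gart (chr16:91621395-91646972) carries several of the early steps on 1 polypeptide. It read 1895, 2083, 1751 and 2136 on arrays labelled Trib1 hi, against 1062, 1001, 1061 and 981 on arrays labelled Trib1 null, 1.91-fold higher (adjusted p = 1.78e-08). This rise belongs to its brightest probe set. The other Gart probe sets above 500 on all arrays differed by 0.12 (adjusted p = 0.513) and -0.18 (0.587) in a fit over all probe sets, so its probe sets disagree, and averaging them ended the call (adjusted p = 0.665).

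Pfas (chr11:68985701-69008460), which adds the nitrogen for ring closure from glutamine, read 1321, 1315, 1393 and 1341 on arrays labelled Trib1 hi and 799, 696, 792 and 810.5 on arrays labelled Trib1 null (log2 difference 0.79, SE 0.12, adjusted p = 4.42e-06). Adsl (chr15:80948490-80970947), the lyase that acts both in ring assembly and in making AMP, read 1519, 1408, 1483 and 1451 on arrays labelled Trib1 hi, against 811, 756, 716 and 718 on arrays labelled Trib1 null. That was 1.95-fold higher (SE 0.12, adjusted p = 9.70e-08), the largest log2 increase of the 14 called at 0.96. In both genes array 3 labelled Trib1 hi lay near the rest of its group, and array 2 labelled Trib1 null was low for Pfas.

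Paics, a bifunctional enzyme of the middle steps, averaged 14007 ± 2206 in the group labelled Trib1 hi and 10553 ± 645 in the group labelled Trib1 null (log2 difference 0.40, -0.33 with equal array medians, adjusted p = 0.0162). Array 3 labelled Trib1 hi, at 10794, fell within the range of the other group, and the other 3 lay above it. The call ended without array 1, 2 or 4 labelled Trib1 hi or array 1 labelled Trib1 null (adjusted p = 0.0550 to 0.0726) and was firmer without array 3 (0.000196). Its other probe sets rose by 0.45 (adjusted p = 0.00471) and 0.50 (0.00111).

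**Figure D2:**
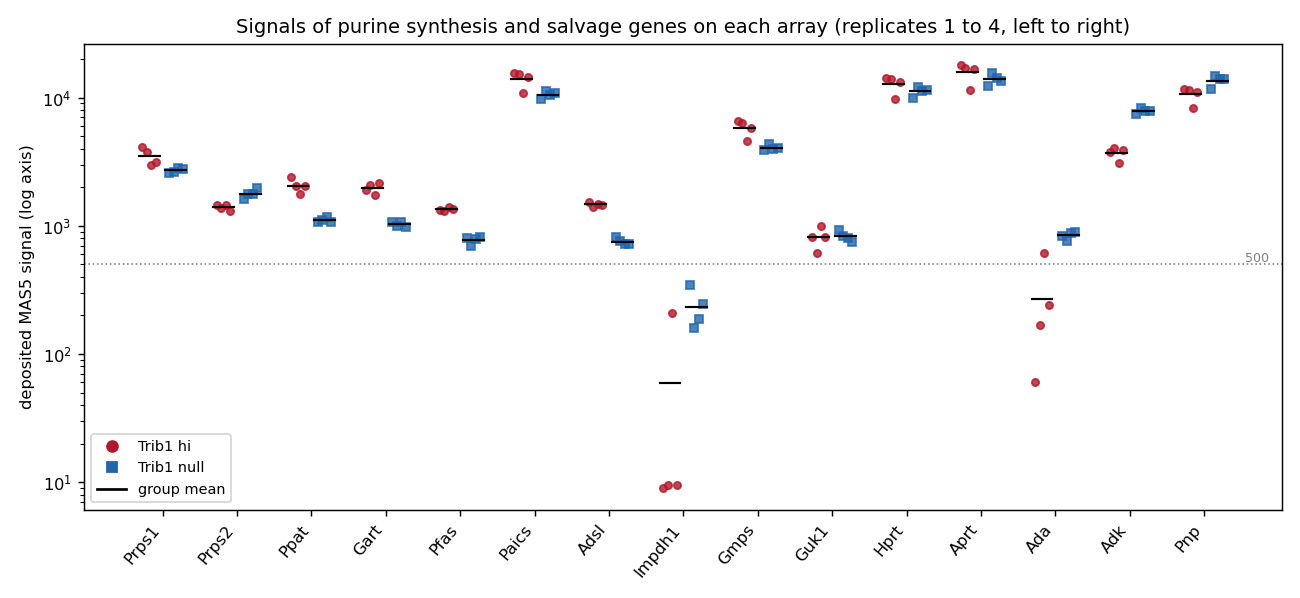
Deposited MAS5 signal on a log axis for each of the 4 arrays labelled Trib1 hi (circles, left) and the 4 labelled Trib1 null (squares, right), with group means as bars, for genes of PRPP synthesis, purine ring assembly, the guanine branch and purine salvage. Ppat, Gart, Pfas and Adsl separate upwards and Adk downwards, while Impdh1 lies below the dotted line at 500 on all 8 arrays.

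Ppat and Paics overlap by their 5′ ends on chromosome 5 of the mouse assembly GRCm38.p6, at chr5:76913249-76951578 on the minus strand and chr5:76951302-76967509 on the plus strand, with annotated start sites 276 bases apart. Their promoter windows, from 250 bases before to 50 after the start, are shown because both genes rose, and are credited to RefSeq on GRCm38.p6. Capitals mark the motifs searched: CACGTG, the E-box bound by MYC and MAX, which reads alike on both strands, and TTTCCCGC, an E2F-type site, on either strand.
Paics, chr5:76951052-76951351, plus strand: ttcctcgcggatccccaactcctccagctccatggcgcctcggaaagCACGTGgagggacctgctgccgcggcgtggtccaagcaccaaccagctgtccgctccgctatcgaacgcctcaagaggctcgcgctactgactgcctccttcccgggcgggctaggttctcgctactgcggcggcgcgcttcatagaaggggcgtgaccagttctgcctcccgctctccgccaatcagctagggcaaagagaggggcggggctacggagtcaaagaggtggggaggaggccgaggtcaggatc
Ppat, chr5:76951529-76951828, minus strand: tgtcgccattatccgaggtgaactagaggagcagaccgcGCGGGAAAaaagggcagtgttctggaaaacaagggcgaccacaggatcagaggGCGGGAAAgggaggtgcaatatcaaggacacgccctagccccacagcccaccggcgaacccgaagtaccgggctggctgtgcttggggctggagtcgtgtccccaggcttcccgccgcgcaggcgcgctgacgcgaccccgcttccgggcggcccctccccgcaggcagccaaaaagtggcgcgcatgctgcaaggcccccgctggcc
The Paics window holds 1 CACGTG, 203 bases before the start site, and the Ppat window holds TTTCCCGC at 2 places on the opposite strand.

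Over the whole set, 34 of the 37 genes had 44 windows in the table, Atic and Impdh2 included. CACGTG was found in 7 of these 44 windows (15.9%), against 7.15% of all 32851 promoter windows, and TTTCCCGC in 2 (4.55%), against 1.07%, namely those of Ppat, which rose, and Prps2, which fell. TTTCGCGC, TTTGGCGC and the ATF4-type site TGATGCAA, searched on both strands, were found in 0 of 44, against 0.323%, 0.514% and 0.895% of all windows. The searched motifs do not overlap in these windows. The CACGTG sites of the other measured genes are shown with the bases around them, the motif in capitals, since these genes move to different extents.
Nme1, first window, chr11:93968037-93968066, minus strand: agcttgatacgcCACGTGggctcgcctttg
Nme1, second window, chr11:93968273-93968302, minus strand: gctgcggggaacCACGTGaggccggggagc
Dtymk, chr1:93802065-93802094, minus strand: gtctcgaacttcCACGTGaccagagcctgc
Tyms, chr5:30073669-30073698, minus strand: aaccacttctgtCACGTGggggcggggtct
Of the 4 measured genes with the motif, Paics, Nme1 and Dtymk rose and Tyms was not called. A match of letters is a description and no evidence of binding.

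The enzymes that make PRPP itself moved in opposite directions. Prps1 and Prps2 are X-linked paralogs, both PRPP synthetases. Prps1 read 4146, 3781, 2994 and 3134 on arrays labelled Trib1 hi, against 2580.4, 2645, 2801 and 2780.0 on arrays labelled Trib1 null (log2 difference 0.37, adjusted p = 0.00445). Prps2 read 1448, 1366, 1442 and 1298 on arrays labelled Trib1 hi, against 1605, 1783, 1764 and 1976 on arrays labelled Trib1 null (-0.36, adjusted p = 0.00744). Neither gene's groups overlapped. The fall of Prps2 was smaller than that of the dap control at similar signal (-0.68 to -0.50), whose part in the result was not tested, and the call ended without array 4 labelled Trib1 null (adjusted p = 0.0643). The Prps1 call ended with signals below 500 set to 500 (adjusted p = 0.0537, the gene itself being above 500 on every array), and its other bright probe set differed by 0.20 (adjusted p = 0.165).

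In the guanine branch, Gmps rose and Guk1 was not called. Gmps, which aminates xanthosine monophosphate to GMP, averaged 5794 ± 858 in the group labelled Trib1 hi and 4071 ± 185 in the group labelled Trib1 null (1.41-fold, adjusted p = 0.000235), higher on 4 of 4 arrays. Guk1, the kinase that makes GDP, averaged 810.2 ± 154 in the group labelled Trib1 hi and 825 ± 75 in the group labelled Trib1 null, with an interval of the log2 difference from -0.36 to 0.28. Impdh1, a form of the enzyme that oxidises inosine monophosphate, read 8.93, 9.50, 207 and 9.50 on arrays labelled Trib1 hi and 342, 160.2, 189 and 246 on arrays labelled Trib1 null. All 8 values lay below 500, where the arrays differ in their lower range, and only array 3 labelled Trib1 hi reached the range of the other group (adjusted p = 0.0738, 0.000329 without array 3).

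Purine salvage did not follow ring assembly. Of its 5 genes 3 fell and 0 rose, with a median log2 difference of -0.36. Of all genes tested 19.7% fell, and 31.1% of those with a mean signal of 500 or more. The call of Pnp, among the 3, ended when certain single arrays were left out. The enzymes that handle adenosine and inosine fell (Adk, Ada and Pnp), and the base-recycling transferases Hprt and Aprt were not called.

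Adk (chr14:21052574-21448569) phosphorylates adenosine to AMP. It read 3767, 4039, 3108 and 3927 on arrays labelled Trib1 hi, against 7465, 8305, 7882 and 7874 on arrays labelled Trib1 null, 2.13-fold lower (log2 difference -1.09, SE 0.10, adjusted p = 9.48e-11). The highest array labelled Trib1 hi read 4039 and the lowest labelled Trib1 null 7465. A further probe set, at 857 ± 162 in the group labelled Trib1 hi and 2847 ± 111 in the group labelled Trib1 null, fell by more (-1.75, adjusted p = 1.11e-11). Averaging in the dim probe sets ended the call (adjusted p = 0.32).

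Ada (chr2:163726571-163750239) deaminates adenosine and deoxyadenosine. Its signals were 60.3, 168, 608 and 241 on arrays labelled Trib1 hi, against 838, 767, 876 and 896 on arrays labelled Trib1 null. The groups did not overlap, and since 3 of the 4 arrays labelled Trib1 hi lay below 500 the fold is a bound, at least 1.60-fold lower (adjusted p = 7.59e-05). With signals below 500 set to 500 the log2 difference was -0.68 (adjusted p = 0.00114), against -2.08 as fitted. The dap probe sets nearest in signal differed by -1.26 (329 ± 211 in the group labelled Trib1 hi and 701 ± 72.1 in the group labelled Trib1 null) and -0.84 (609.6 ± 176 and 1073 ± 189, in the groups labelled Trib1 hi and Trib1 null), and the control's part in the result was not tested. The Ada call ended without a shared variance (adjusted p = 0.0887), where the exact permutation p was 0.0286, the smallest that 4 against 4 arrays allow.

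Pnp, the phosphorylase that splits inosine and guanosine, averaged 10646 ± 1608 in the group labelled Trib1 hi and 13549 ± 1283 in the group labelled Trib1 null (1.28-fold lower, adjusted p = 0.0325). The groups overlapped, since array 1 labelled Trib1 null read 11681, and the call ended without array 4 labelled Trib1 hi or array 2, 3 or 4 labelled Trib1 null (adjusted p = 0.0586 to 0.106). An adjacent copy, Pnp2, has its own probe set, and how far the Pnp probes also read it is not known. Hprt, which recycles hypoxanthine and guanine, averaged 12859 ± 2111 in the group labelled Trib1 hi and 11152 ± 847 in the group labelled Trib1 null (adjusted p = 0.322, 0.00449 without array 3). Aprt, which recycles adenine, averaged 15715 ± 2879 in the group labelled Trib1 hi and 13889 ± 1337 in the group labelled Trib1 null (adjusted p = 0.474, 0.0119 without array 3). On the 3 remaining arrays labelled Trib1 hi, Hprt and Aprt each exceeded all 4 arrays labelled Trib1 null.

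In pyrimidine synthesis Umps and Ctps, of the last steps, rose. Of 5 genes, 2 rose, 0 fell and 3 were not called, and the median log2 difference was -0.10. Of all genes tested 11.1% rose and 19.7% fell. Of those with a mean signal of 500 or more, 24.2% rose and 31.1% fell. Cad, the multifunctional enzyme of the first steps, averaged 602 ± 105 in the group labelled Trib1 hi and 709 ± 87.0 in the group labelled Trib1 null (adjusted p = 0.39), and was called lower without array 3 labelled Trib1 hi (-0.35, adjusted p = 0.0407). Dhodh, the mitochondrial dehydrogenase of the route, lay below 500 on all arrays but array 3 labelled Trib1 hi, with means of 311 ± 229 in the group labelled Trib1 hi and 281 ± 83.6 in the group labelled Trib1 null and no call (adjusted p = 0.924).

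Umps (chr16:33954782-33967038), which makes uridine monophosphate, read 1069, 1343, 1455 and 1390.2 on arrays labelled Trib1 hi, against 833, 1265, 856 and 772 on arrays labelled Trib1 null (log2 difference 0.51, SE 0.14, adjusted p = 0.00508). Array 2 labelled Trib1 null, at 1265, lay above the lowest array of the other group. The call ended without array 3 labelled Trib1 hi (adjusted p = 0.0621) and with the mean of all its probe sets (0.765), and its second bright probe set differed by 0.29 (adjusted p = 0.28).

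Ctps and Ctps2 encode CTP synthases, which aminate UTP. Ctps read 1484, 1352, 1450.4 and 1514 on arrays labelled Trib1 hi, against 889, 693, 852 and 775 on arrays labelled Trib1 null, 1.81-fold higher (SE 0.12, adjusted p = 1.19e-06). The X-linked Ctps2 read 2101, 2187, 1870.0 and 2074 on arrays labelled Trib1 hi, against 2292, 2437, 2371 and 2513 on arrays labelled Trib1 null, lower on every array but not called (-0.22, adjusted p = 0.0668, 0.0131 without array 3). Ctps thus separated upwards while Ctps2 lay slightly lower.

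**Figure D3:**
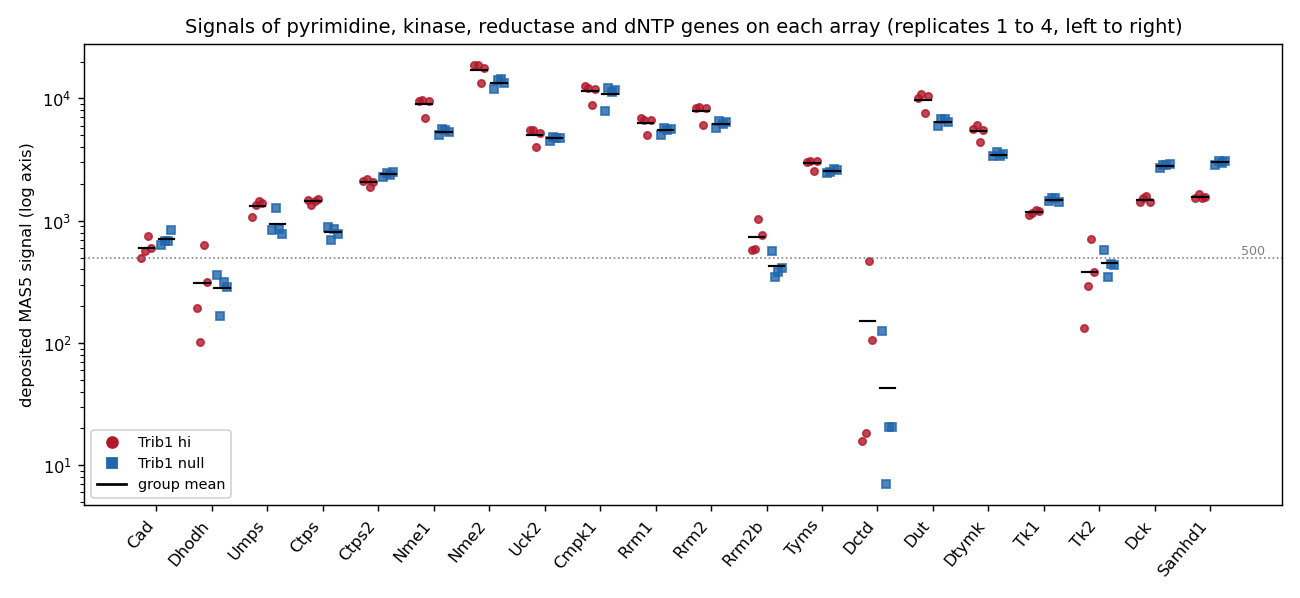
Deposited MAS5 signal on a log axis on each array labelled Trib1 hi (circles, left) and Trib1 null (squares, right), with group means as bars, for genes of pyrimidine synthesis, nucleotide kinases, ribonucleotide reductase and dNTP balance. Ctps, Nme1, Dut and Dtymk separate upwards and Dck and Samhd1 downwards, and the third circle, array 3, is the lowest of its group in each gene above 2000 on all arrays labelled Trib1 hi.

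Among the kinases that raise nucleotides to di- and triphosphates, Nme1 rose and the other 3 were not called. Nme1 and Nme2 are neighbouring nucleoside diphosphate kinase genes on chromosome 11, 2668 bases apart, and their transcripts are alike, so probes may read across them. Nme1 read 9616, 9723, 6956 and 9550.2 on arrays labelled Trib1 hi, against 4984, 5611, 5498 and 5314 on arrays labelled Trib1 null (1.66-fold, SE 0.11, adjusted p = 2.15e-06). Nme2 read 18679.9, 18786, 13367 and 17825 on arrays labelled Trib1 hi, against 11929.7, 14178, 14410.2 and 13436 on arrays labelled Trib1 null (0.34, adjusted p = 0.0615, 0.000958 without array 3). Nme1 separated with array 3 included, whereas for Nme2 array 3 fell within the range of the other group. The second bright Nme1 probe set differed less (0.24, adjusted p = 0.0775).

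Uck2, which phosphorylates uridine and cytidine, averaged 5057 ± 736 in the group labelled Trib1 hi and 4726 ± 147 in the group labelled Trib1 null (adjusted p = 0.62, 0.00533 and higher without array 3), yet its other bright probe sets differed in the opposite direction, by -0.24 and -0.22 without passing the threshold (adjusted p = 0.0732 and 0.256). Cmpk1, the UMP and CMP kinase, averaged 11419 ± 1756 in the group labelled Trib1 hi and 10785 ± 2004 in the group labelled Trib1 null (adjusted p = 0.721), with an interval of the log2 difference from -0.19 to 0.37.

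Ribonucleotide reductase pairs the large subunit Rrm1 with a small subunit, Rrm2 in dividing cells or the p53-inducible Rrm2b. Rrm1 averaged 6311 ± 889 in the group labelled Trib1 hi and 5497 ± 332 in the group labelled Trib1 null (adjusted p = 0.201, 0.00216 without array 3). Rrm2 averaged 7862 ± 1173 in the group labelled Trib1 hi and 6199 ± 342 in the group labelled Trib1 null (0.33, adjusted p = 0.0192), and its call ended without array 1, 2 or 4 labelled Trib1 hi or array 1 labelled Trib1 null (adjusted p = 0.0649 to 0.0782). Array 3 labelled Trib1 hi read 6104, within the range of the arrays labelled Trib1 null, and the other 3 read 8395 or more. The second bright Rrm2 probe set differed by 0.21 (adjusted p = 0.192), and averaging both ended the call (0.156). Rrm2b read 573, 591, 1024 and 759 on arrays labelled Trib1 hi, against 564, 345, 383 and 410.3 on arrays labelled Trib1 null, at least 1.39-fold higher (adjusted p = 0.00707). Its groups lay apart only narrowly, at 573 and 564, and the call ended with signals below 500 set to 500 (adjusted p = 0.146).

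Of the 8 genes of thymidylate supply and dNTP balance, 2 rose (Dut and Dtymk), 3 fell (Tk1, Dck and Samhd1) and 3 were not called.

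Dut (chr2:125247248-125259049), the dUTPase that keeps uracil out of DNA and yields the precursor of thymidylate, read 10069, 10775, 7537 and 10399.6 on arrays labelled Trib1 hi, against 5940.3, 6739, 6829.8 and 6397 on arrays labelled Trib1 null (1.48-fold, SE 0.11, adjusted p = 0.000142). Dtymk (chr1:93792576-93802068), the thymidylate kinase, read 5594, 6063, 4424 and 5535 on arrays labelled Trib1 hi, against 3385, 3621, 3381 and 3519 on arrays labelled Trib1 null (1.54-fold, SE 0.10, adjusted p = 4.53e-06). Both lay higher on 4 of 4 arrays, and a further Dtymk probe set rose by 0.53 (adjusted p = 0.000119). Tyms, the thymidylate synthase, averaged 2938 ± 258 in the group labelled Trib1 hi and 2559 ± 102 in the group labelled Trib1 null and was not called (adjusted p = 0.118, 0.00141 without array 3).

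Dck (chr5:88765013-88783277) phosphorylates deoxycytidine and activates the antileukaemic drug cytarabine. It read 1415, 1531, 1584 and 1419 on arrays labelled Trib1 hi, against 2680.0, 2846, 2831 and 2891 on arrays labelled Trib1 null, 1.89-fold lower (log2 difference -0.92, SE 0.09, adjusted p = 1.49e-09). Samhd1 (chr2:157097534-157135096), which hydrolyses dNTPs and inactivates cytarabine triphosphate, read 1535, 1651, 1537 and 1574 on arrays labelled Trib1 hi, against 2868, 3072, 2988 and 3102 on arrays labelled Trib1 null, 1.91-fold lower (SE 0.09, adjusted p = 6.41e-10). In both genes the arrays of each group lay close together, array 3 included, and both fell by more than the dap control did at similar signal (-0.68 to -0.50), whose part in the result was not tested. A dimmer Samhd1 probe set fell by less (-0.40, adjusted p = 0.0194).

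Tk1, the cytosolic thymidine kinase of dividing cells, read 1104, 1148, 1229.8 and 1196 on arrays labelled Trib1 hi, against 1445, 1527, 1525 and 1432 on arrays labelled Trib1 null, 1.27-fold lower (log2 difference -0.34, adjusted p = 0.0139). This fall was smaller than that of dap, whose part in it was not tested, and the call ended without array 1 labelled Trib1 hi or array 2 or 3 labelled Trib1 null (adjusted p = 0.0516 to 0.0671). Tk2, the mitochondrial kinase, read 133, 294, 715 and 377 on arrays labelled Trib1 hi, against 575, 346, 446 and 434 on arrays labelled Trib1 null, with overlap and mostly below 500 (adjusted p = 0.416). Dctd, the dCMP deaminase, lay below 500 on all 8 arrays, with means of 151 ± 213 in the group labelled Trib1 hi and 43.1 ± 54.6 in the group labelled Trib1 null (adjusted p = 0.692).

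Paralogs within the set were compared through the log2 ratio of their signals on each array, which leaves out differences between arrays that touch both genes alike. With Impdh2 not analysed, 5 pairs were compared by an exact two-sided permutation test over the 8 arrays, adjusted over the 5. The Prps1 over Prps2 ratio was 1.52, 1.47, 1.05 and 1.27 on arrays labelled Trib1 hi, against 0.68, 0.57, 0.67 and 0.49 on arrays labelled Trib1 null, a difference of 0.72. Ctps over Ctps2 was -0.50, -0.69, -0.37 and -0.45 on arrays labelled Trib1 hi, against -1.36, -1.81, -1.47 and -1.69 on arrays labelled Trib1 null, a difference of 1.08. Nme1 over Nme2 was -0.94 ± 0.03 in the group labelled Trib1 hi and -1.33 ± 0.05 in the group labelled Trib1 null, a difference of 0.39, and array 3 did not stand apart in this ratio.

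In these 3 pairs the groups did not overlap and the exact p was 0.0286, the smallest that 4 against 4 arrays allow (adjusted p = 0.0476 by exact permutation). Rrm2 over Rrm2b differed by -0.44 (exact p = 0.257, adjusted 0.321) and Tk1 over Tk2 by 0.12 (exact p = 0.857, adjusted 0.857), with overlap in both. A ratio does not tell which partner moved. The Nme1 ratio rests on the brightest Nme1 probe set, and the second one differed by 0.24, less than Nme2 (0.34).

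**Figure D4:**
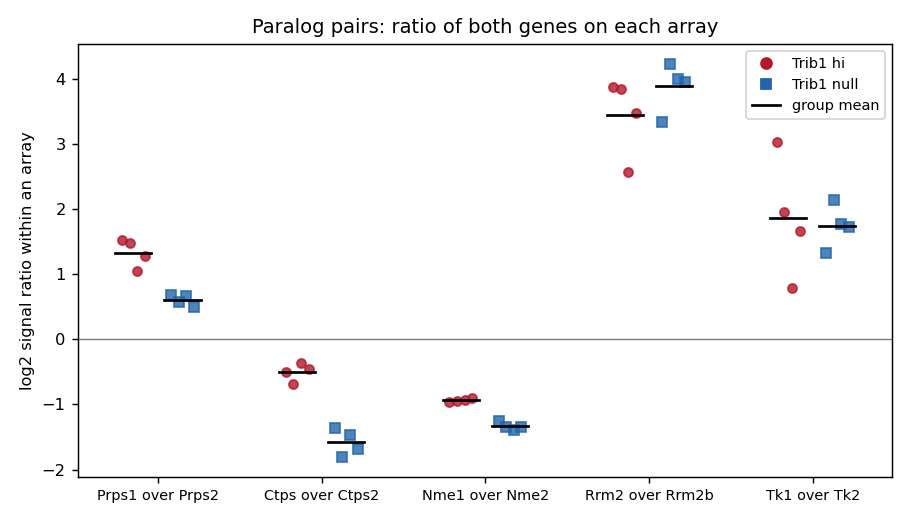
Log2 ratio of the signals of both genes of a pair on each array labelled Trib1 hi (circles, left) and Trib1 null (squares, right), with group means as bars. The groups separate for Prps1 over Prps2, Ctps over Ctps2 and Nme1 over Nme2, and overlap for Rrm2 over Rrm2b and Tk1 over Tk2.

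Of the further genes around the pathway, 29 of 105 tested rose (27.6%) and 19 fell (18.1%), against 11.1% and 19.7% of all genes tested. The 29 include Atf4, Phgdh and Psat1, whose rise was known beforehand. Without array 3 labelled Trib1 hi, 46 rose and 26 fell. Of 7 tested genes of the adenylate branch and adenylate kinases, 1 rose and 1 fell: Ak6, an adenylate kinase of the nucleus (1.91-fold higher, adjusted p = 3.13e-09), and Adssl1, an adenylosuccinate synthetase (1.63-fold lower, 5.26e-07), and 4 rose and 2 fell without array 3. Of 13 breakdown genes, 1 rose and 5 fell (2 and 5 without array 3). Mtap, which recovers adenine from methylthioadenosine, averaged 2674 ± 319 in the group labelled Trib1 hi and 982 ± 127 in the group labelled Trib1 null (2.73-fold higher, adjusted p = 3.29e-12). Nt5c3b, a nucleotidase, and Nt5c2, a purine nucleotidase, averaged 109.8 ± 168 and 152 ± 224 in the group labelled Trib1 hi, against 470.1 ± 63.2 and 348 ± 53.0 in the group labelled Trib1 null (adjusted p = 0.00315 and 0.0314). Nt5c3b lay below 500 on 7 arrays and Nt5c2 on all 8. The groups overlapped for Nt5c2 (exact permutation p = 0.143). Nt5e, the surface enzyme CD73, was at least 1.27-fold lower (adjusted p = 0.00443). The others that fell were Upp1, the uridine phosphorylase, and Gda, the guanine deaminase (-0.88 and -0.59, adjusted p = 0.000225 and 0.000164). With 2 arrays below 500, the Upp1 fold is a bound, at least 1.74-fold lower. Upp1 averaged 580 ± 199 in the group labelled Trib1 hi and 1035 ± 106 in the group labelled Trib1 null. A dap probe set of similar signal (609.6 ± 176 and 1073 ± 189 in these groups) differed by -0.84, and the control's part in the result was not tested.

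Of 13 further salvage, kinase and transport genes, 1 rose and 4 fell. That is 7.69% rising and 30.8% falling, against 11.1% and 19.7% of all genes tested. The gene that rose was Prpsap2, which associates with PRPP synthetase (1.43-fold, adjusted p = 0.000951). The 4 that fell were Cmpk2, a mitochondrial nucleotide kinase (at least 1.19-fold lower, adjusted p = 0.00035), Nme3 and Nme7 (each at least 1.35-fold, 0.000102 and 0.0198), and Uckl1, a uridine kinase relative (1.39-fold, 0.00746). For Nme7 the groups overlapped, with array 3 labelled Trib1 hi the highest of all at 837 (exact permutation p = 0.143). Of its arrays 3 lay below 500. Without array 3 labelled Trib1 hi, 2 rose and 7 fell.

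Folate enzymes feed formyl groups to purines and methyl groups to thymidylate, and serine synthesis supplies them. Of 14 tested genes of this list 10 rose and 1 fell, with a median log2 difference of 0.82, and with equal array medians 1 rose and 2 fell. In the main fit 71.4% rose and 7.14% fell, against 11.1% and 19.7% of all genes tested. Of genes with a mean signal of 500 or more, 24.2% rose and 31.1% fell. Phgdh of serine synthesis, Shmt2, which splits serine in mitochondria, and Psat1, also of serine synthesis, were 4.58-fold, 4.40-fold and 3.28-fold higher (adjusted p = 7.97e-17, 7.12e-16 and 1.14e-14). Aldh1l2, a mitochondrial folate dehydrogenase, averaged 564 ± 153 in the group labelled Trib1 hi and 27.7 ± 45.9 in the group labelled Trib1 null (adjusted p = 0.000795), with no fold given, since arrays of both groups lay below 500. The one that fell was Ggh, a folate hydrolase (-0.49, adjusted p = 0.000181). Atf4, Phgdh and Psat1 of this list were known from an earlier analysis of these arrays to rise and give no independent support. They are counted among the 10 that rose and in the median of 0.82. Of 10 genes around the supply and use of ribose, glutamine and aspartate, 2 rose and 1 fell: the asparagine synthetase Asns (1.75-fold, adjusted p = 1.54e-06), the glutamine carrier Slc1a5 (1.72-fold, 5.98e-07) and the argininosuccinate lyase Asl (1.35-fold lower, 0.0168). Without array 3 labelled Trib1 hi, 4 rose and 2 fell, and 0 fell without array 1 or 2 labelled Trib1 hi or array 1 labelled Trib1 null.

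Genes of DNA replication and cell division rose more often than they fell in the main fit. Of 39 tested, 13 rose and 3 fell, with a median log2 difference of 0.17, and with equal array medians 0 rose and 1 fell. That is 33.3% rising and 7.69% falling, against 11.1% and 19.7% of all genes tested and 24.2% and 31.1% of those with a mean signal of 500 or more. Without array 3 labelled Trib1 hi 21 rose and 4 fell. Among the 13 that rose were Mcm2, a subunit of the replicative helicase (1.78-fold, adjusted p = 5.60e-08), and Gins1, a further helicase component (1.65-fold, 2.43e-06). The 3 that fell were Lig1, Mcm5 and E2f1. Lig1, the DNA ligase of replication, fell 1.66-fold (adjusted p = 1.42e-07), and another helicase subunit, Mcm5, fell 1.44-fold (3.30e-05). E2f1, a regulator of S phase genes, averaged 299.5 ± 231 in the group labelled Trib1 hi and 501 ± 57.7 in the group labelled Trib1 null and was called lower (adjusted p = 0.0404). Its groups overlapped, with array 3 labelled Trib1 hi the highest at 619, and 4 arrays lay below 500. The exact permutation p of E2f1 was 0.143, and its difference was -0.11 with quantile normalization. The summed signal of the list was 122848 to 159009 on arrays labelled Trib1 hi and 120150.0 to 133937 on arrays labelled Trib1 null, and its part in the rise of the nucleotide genes was not tested.

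In the MYC network, 1 of 9 tested genes rose (11.1%) and 4 fell (44.4%), against 11.1% and 19.7% of all genes tested. Leaving out 1 array at a time, 0 to 3 rose (3 without array 3 labelled Trib1 hi) and 3 to 4 fell. Myc, a known activator of nucleotide enzyme genes, averaged 6669 ± 1098 in the group labelled Trib1 hi and 5482 ± 424 in the group labelled Trib1 null and was not called (0.27, adjusted p = 0.0647). The 4 that fell, Mxd3 (-4.15, in the dim range), Mxd1 (-1.88, with 3 arrays below 500), Mxd4 (-0.88) and Mxi1 (-0.64), encode MAX partners that oppose MYC (adjusted p = 0.0201, 1.03e-07, 2.50e-08 and 5.33e-06). Mycn (0.21), Mnt (-0.01) and Mga (0.93) of the same list were not called (adjusted p = 0.447, 0.963 and 0.331). Mlx, another protein of the network, rose (0.31, adjusted p = 0.0325).

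Set against all genes of the array, the nucleotide genes rose more often than genes of like signal in the range of 500 to 2000. Between signals of 500 and 2000, 7 of 12 members rose (58.3%), against 19.6% of all genes there, and the members' median difference was 0.64, against -0.19. Between 2000 and 5000, 3 of 8 rose (37.5%), against 33.8%, and above 5000, 4 of 11 (36.4%), against 22.6%. Below 500, 0 of 4 members were called in limma (Impdh1 alone had an unadjusted p under 0.05, 0.0245), against 1.08% higher and 10.9% lower among all genes there. The members lie on 14 chromosomes. Of the 4 on the X chromosome, Prps1 rose, Prps2 fell, and Hprt and Ctps2 were not called.

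**Figure D5:**
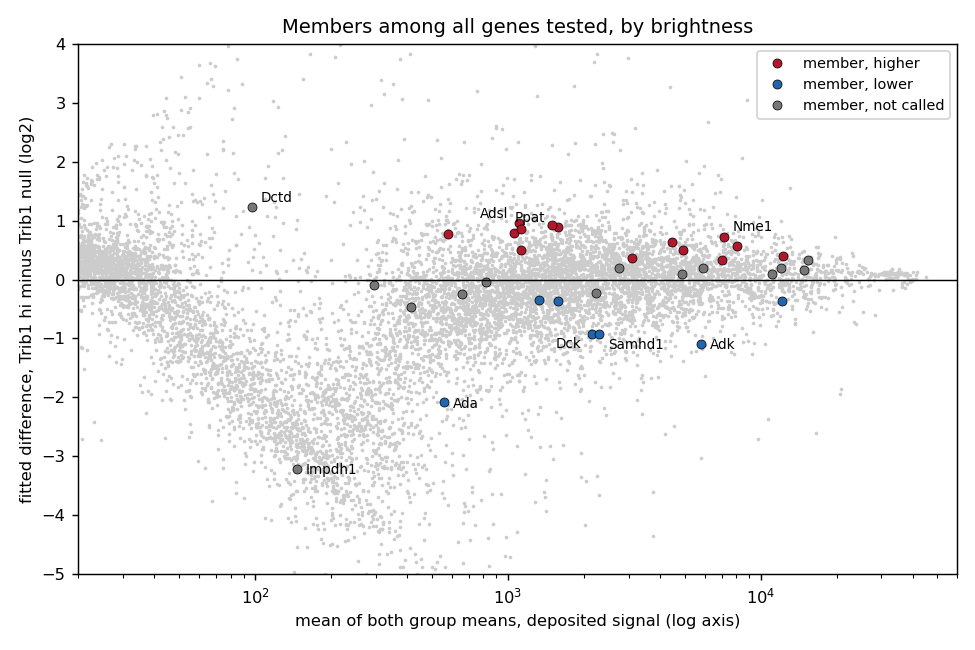
Fitted log2 difference (y axis) against mean signal on a log axis (x axis) for genes tested (grey, with 2696 of the 12250 outside the axes) and for the nucleotide genes (large circles). Adsl (0.96) and Ppat (0.89) sit on the upper side of the grey cloud, which widens downwards at signals below 500 (median 0.20, lower quartile -1.26), where Impdh1 lies.

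Further probe sets gave a second reading of some genes on the same arrays. The 35 genes had 75 probe sets, and 12 genes had more than 1 that exceeded 500 on all arrays. Of these 15 further probe sets, 12 differed in the same direction as the brightest one, and the exceptions were 1 probe set of Gart and 2 of Uck2.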

How the data were processed

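Per the submitters' processing notes the deposited intensities come from MAS5, which summarises and scales each array (no version or settings stated). The authors deposited linear intensities for 45141 probe sets on 8 arrays, 4 per group. Probe sets with exactly 1 annotated gene symbol (28898) gave 17097 genes, each read from its brightest probe set. Values were tested as log2(intensity + 2.71), the 25th percentile of all values, keeping the 12250 genes whose mean passed 3.01, the 40th percentile of probe sets. limma 3.58.1 in R 4.3.3 (lmFit, eBayes with a trend) compared the groups two-sided with Benjamini-Hochberg adjustment; single ratios used exact permutation in Python 3.11.15. The fit was tested on simulated data. All members are named; values on every array are given for called members with a log2 difference of 0.5 or more in size and for paralogs whose calls differ. Of each further list up to 4 called genes are named and Upp1, Gda, Uckl1, Ggh, Mcm5, Mlx, Mycn, Mnt and Mga, named to complete small counts, were chosen after their values were seen. Members and lists were chosen with earlier results of these data known. After quantile normalization 3354 genes of all tested were higher and 3346 lower, against 1363 and 2409. Promoters are RefSeq's on GRCm38.p6, the table used for positions, since no build is given for the files. Alternatives are described at the end.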

Additional observations from a re-analysis of the deposited data

Results flagged for a closer look

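Within groups of 4 arrays, 9 of 70 combinations of gene and group held an array far from the other 3 by Dixon's criterion, which chance meets in about 1 group in 20. In 6 of the 9 the array was number 3 labelled Trib1 hi. It was the lowest of its group for Nme1 (6956, against 9550.2 to 9723 on the other 3), Cmpk1 (8817, against 12025 to 12664), Rrm1 (4989, against 6648 to 6916), Rrm2 (6104, against 8395 to 8527) and Tyms (2555, against 3024 to 3099), and the highest for Impdh1 (207, against 8.93 to 9.50). Among arrays labelled Trib1 null, array 2 was the lowest for Pfas (696, against 792 to 810.5) and the highest for Umps (1265, against 772 to 856), and array 1 was the highest for Dctd (125, against 6.97 to 20.7).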

How the results depend on the processing

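Of the 21 called nucleotide genes, 8 kept their call and direction under every alternative except equal medians (Ppat, Pfas, Adsl, Ctps, Nme1, Dtymk, Dck and Samhd1), and 0 kept them under all. Against 14 members higher, 9 were higher with signals below 500 set to 500, 23 with quantile normalization, 0 with equal medians, 7 with the mean of the probe sets, 9 without the variance trend, 9 without a shared variance, and 12 to 19 leaving out 1 array at a time. Against 7 lower, 2 were lower with equal medians, 4 without the trend and 5 to 10 leaving out 1 array. Of all genes, 3354 were higher with quantile normalization, 162 with equal medians, 711 with the mean of the probe sets, and 1153 to 2103 leaving out 1 array; 1595 were lower with signals set to 500, 1285 with the mean of the probe sets, 1274 without the trend, 1379 without a shared variance, and 1964 to 3768 leaving out 1 array. The share of calls that were higher was 36.1%, 50.1% with quantile normalization and 6.98% with equal medians. Of the other pathway genes, 57 were higher with quantile normalization and 3 with equal medians (26 to 46 leaving out 1 array), and 12 were lower with equal medians and 8 with the mean of the probe sets (15 to 26 leaving out 1 array). The highest counts came without array 3 labelled Trib1 hi (2103 higher and 3768 lower, 46 other pathway genes higher). Equal medians moved the median difference of all genes to -0.69, and these genes reversed: Prps1 -0.36, Paics -0.33, Gmps -0.23, Hprt -0.53, Aprt -0.56, Umps -0.21, Nme2 -0.39, Uck2 -0.64, Cmpk1 -0.64, Rrm1 -0.54, Rrm2 -0.40, Tyms -0.53, Dut -0.16 and Dtymk -0.10; each of these 14 lay above that median. The mean of the probe sets reversed Gmps (-0.28), Ctps2 (0.31) and Uck2 (-0.35); quantile normalization Guk1 (0.24), Cad (0.12), Dhodh (1.54), Uck2 (-0.01) and Tk2 (0.49); setting signals to 500 Dhodh (0.08) and Tk2 (0.08), with no value for Dctd and Impdh1. Leaving out 1 array gave -0.14 to 0.09 for Guk1, -0.54 to 0.32 for Dhodh and -0.06 to 0.21 for Cmpk1. The Tk1 over Tk2 ratio reversed with signals set to 500 (-0.42, adjusted exact p = 0.0357) and quantile normalization (-0.72), and ranged from -0.27 to 0.48 leaving out 1 array; Rrm2 over Rrm2b passed with quantile normalization (-1.37, adjusted exact p = 0.0357). Leaving out 1 array gave 0.66 to 0.82 for Prps1 over Prps2, 1.01 to 1.16 for Ctps over Ctps2 and 0.37 to 0.42 for Nme1 over Nme2, with adjusted exact p of 0.0714 to 0.0952, since so few arrays cannot reach the threshold. Arrays share only a number (same-numbered deviations correlated at -0.507, 0.487, -0.294 and 0.367, and not every array correlated best with its own number). With the replicate block 14 members were higher and 6 lower, the call of Pnp being lost (adjusted p = 0.0581 in limma). Pairing by number gave 0.72, 1.08 and 0.39 for these ratios. The adjusted exact p of 0.208 with pairing decides nothing, since 4 pairs cannot reach the threshold. Causes of these changes were not tested. Signals below 500 limit what Impdh1, Dhodh, Tk2 and Dctd can show.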
